A study of Homo sapiens with 3 samples.

Results

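Tetraspanins are a family of membrane proteins, and the 10 described here are CD81, CD9, CD63, CD151, CD82, TSPAN1, TSPAN3, TSPAN4, TSPAN14 and TSPAN15, found among the 19266 genes of the deposited tables by their Entrez identifiers. All 10 were measured in KYSE510, an established human line of esophageal squamous cell carcinoma. The sh1 cells received lentivirus with shRNA#1 against the transcript TCONS_02256997, the sh2 cells lentivirus with shRNA#2 against the same transcript, and the control cells lentivirus with a scrambled hairpin. Every group was infected for 24 h and kept under 4 µM puromycin for 48 h before Trizol extraction and BGISEQ-500 sequencing. The stated purpose was to screen for targets of TCONS_02256997. That transcript has no row among the deposited genes, so its knockdown could not be checked for either hairpin. Each group is 1 sample with 3 numbered tables, called replicates 1 to 3 of the group here. No label tells if they stem from different cultures, different libraries or repeated runs. Every SD, SE and p-value therefore measures the spread among those replicates alone, and that spread may be technical. The 10 genes were selected on their measured differences between control, sh1 and sh2, so these values are given as a description and without p-values.

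Tetraspanins cross the membrane repeatedly and gather integrins, immunoglobulin-superfamily proteins, proteases and receptors into patches of the plasma membrane and of endosomes. Their large extracellular loop carries a Cys-Cys-Gly motif that marks the family. CD81, CD9 and CD63 are the members most used as surface markers of extracellular vesicles, CD151 holds laminin-binding integrins at the basal side of epithelia, and the TspanC8 subgroup escorts the sheddase ADAM10 to the cell surface. In squamous epithelium these proteins are studied for adhesion, migration and shedding of surface proteins.

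The coding sequence around the Cys-Cys-Gly codons is shown for 5 of the 10 genes, because it is the feature by which the family is recognised and the values below turn on these members. Each line gives 45 bases of the coding strand in reading direction, and the capitals mark the 9 bases of the Cys-Cys-Gly codons.
CD81: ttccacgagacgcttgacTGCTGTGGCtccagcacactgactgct
CD9: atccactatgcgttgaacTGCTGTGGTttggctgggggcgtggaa
CD151: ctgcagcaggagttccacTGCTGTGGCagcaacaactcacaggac
CD63: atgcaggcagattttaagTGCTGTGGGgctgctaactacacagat
CD82: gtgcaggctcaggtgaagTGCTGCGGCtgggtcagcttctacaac

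These were read from the GRCh38 genome with the GENCODE 29 annotation, while the build in the submitters' notes is hg19. The capitals lie in exon 6 of 8 of CD81 on the plus strand (chr11:2395875-2395883), exon 6 of 8 of CD9 on the plus strand (chr12:6235482-6235490) and exon 7 of 9 of CD151 on the plus strand (chr11:837466-837474). They lie in exon 6 of 8 of CD63 on the minus strand (chr12:55726247-55726255) and exon 8 of 10 of CD82 on the plus strand (chr11:44618168-44618176). The search took in-frame TGT or TGC, again TGT or TGC, then GGN, on the coding strand, and all 10 genes and all 23 other human tetraspanins held it, against 535 of 19492 protein-coding genes (2.74%). In the 10 genes the match taken started at codon 145 to 156 of coding sequences that are 228 to 294 codons long. CD81, CD9 and CD63 each held 2 matches, and the match nearest a set point late in the coding sequence was taken. The choice of match thus bears on that range.

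The summed expected count per table was 14660821 to 14770512 in sh1 cells, 15759270 to 16092417 in sh2 cells and 15012961 to 15414591 in control cells. Squamous epithelial markers were present in every table (10 of 10 genes, among them KRT5, KRT17, TP63 and DSG3, but also CDH1 and EPCAM, which are not particular to squamous cells). Their summed level was 6149 to 6226 TPM (a level scaled to transcript length and library size) with sh1, 7413 to 7587 TPM with sh2 and 8802 to 8922 TPM in control, so the squamous sum was lower with both hairpins. Of the 10 markers, 3 were called higher and 6 lower with sh1, and 2 higher and 6 lower with sh2. KRT5, KRT17 and SFN carry most of the sum, whereas EPCAM was higher with each hairpin (log2 0.99 ± 0.028 with sh1 and 0.51 ± 0.028 with sh2), CDH1 and DSP with sh1 and KRT6A with sh2. The part of these markers in the tetraspanin values was not tested. Lymphoid markers summed to 4.64 to 5.42 TPM with sh1, 3.91 to 6.35 TPM with sh2 and 3.56 to 4.84 TPM in control. Endothelial markers reached at most 10.4 TPM and melanocyte markers at most 8.99 TPM, with TYR at 0 in every table. The 4 fibroblast markers reached at most 28 TPM, nearly all of it COL1A1. In such bulk RNA, fewer cells of a type and less RNA per cell cannot be told apart.

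CD81 (Entrez gene 975), an entry receptor for hepatitis C virus, was the member that moved farthest, and it moved in opposite directions with the 2 hairpins. Its level was 352, 366 and 358 TPM in the sh1 tables, 80.3, 82.3 and 77.8 TPM in the sh2 tables, and 186, 168 and 160.4 TPM in the control tables. No table of one group reached the range of another, and control replicate 1 lay highest among the controls. On the log2 scale of the count model, CD81 was 1.11 ± 0.041 (SE, n = 3 tables each) with sh1 against control, a 2.16-fold higher level, and -1.03 ± 0.050 with sh2 against control, a 2.05-fold lower level. Between the hairpins the difference was 2.14 ± 0.046, or 4.41-fold in favour of sh1. These values rest on 760 to 3350 counts per table. Without control replicate 1, the member of its group farthest from the rest, the log2 differences of CD81 from control were 1.18 with sh1 and -0.97 with sh2.

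**Figure D1:**
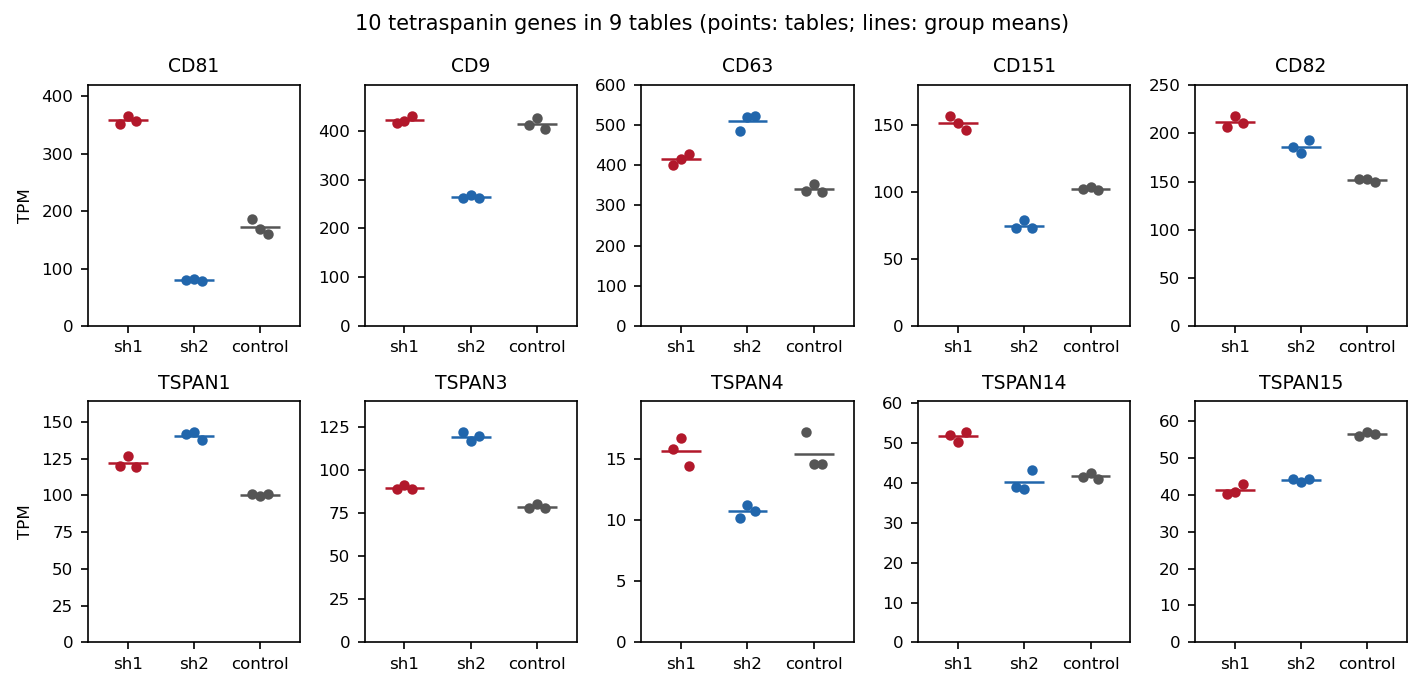
TPM (vertical axis, from 0, a scale for each gene) of the 10 tetraspanin genes in sh1, sh2 and control cells; points are the 3 tables of a group and lines their mean. CD81 stood near 358 TPM with sh1, 80.1 TPM with sh2 and 172 TPM in control, while CD63 was highest with sh2 and TSPAN15 highest in control.

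CD9 (928), needed on the mouse egg for fusion with sperm and another common vesicle marker, was lower with sh2 and nearly level with control under sh1. It stood at 417, 421 and 431 TPM with sh1, 262, 268 and 262 TPM with sh2, and 413, 428 and 404 TPM in control. The sh2 tables lay apart from both other groups, and the sh1 and control tables overlapped. The log2 difference from control was 0.08 ± 0.031 with sh1 and -0.58 ± 0.032 with sh2, and sh1 exceeded sh2 by 0.66 ± 0.032. The small sh1 value passed the threshold of the count model but not in DESeq2, not with all genes kept, and not without sh1 replicate 2, sh1 replicate 3 or control replicate 3, with values of 0.05 to 0.07, and the ratio of mean TPM gave 0.03.

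CD63 (967), a tetraspanin of late endosomes and lysosomes that is carried into vesicles formed there, was higher with both hairpins. Its levels were 401, 415 and 427 TPM with sh1, 485, 520 and 522 TPM with sh2, and 336, 353 and 332 TPM in control. The 3 groups did not overlap, and the sh2 tables were the highest. CD63 differed from control by 0.35 ± 0.038 with sh1 and by 0.65 ± 0.037 with sh2 on the log2 scale, and sh1 lay 0.30 below sh2 (-0.30 ± 0.036). Among the vesicle markers, CD81 and CD9 were thus both lowest with sh2, where CD63 was highest.

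CD151 (977), the tetraspanin that binds laminin-binding integrins most tightly, had the direction of CD81 with each hairpin at a smaller size. Its levels were 156, 151 and 146 TPM with sh1, 72.7, 78.8 and 72.8 TPM with sh2, and 102, 104 and 101.2 TPM in control. The groups were fully separate, with sh1 on top and sh2 at the bottom. The log2 differences were 0.61 ± 0.040 for sh1 against control, -0.38 ± 0.045 for sh2 against control and 0.99 ± 0.042 for sh1 against sh2.

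CD82 (3732), first described as a suppressor of metastasis in prostate cancer, was higher with both hairpins and more so with sh1. It stood at 207, 218 and 211 TPM with sh1, 186, 180.1 and 193 TPM with sh2, and 153, 153 and 149 TPM in control. Every hairpin table exceeded every control table, and every sh1 table every sh2 table. CD82 was 0.53 ± 0.037 above control with sh1 and 0.37 ± 0.037 with sh2, and the hairpins differed by 0.17 ± 0.035.

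TSPAN1 (10103), a tetraspanin of glandular and other epithelia, was higher with both hairpins, and more with sh2. The tables held 119.9, 126 and 119 TPM with sh1, 142, 143 and 137 TPM with sh2, and 101, 99.3 and 101 TPM in control. Again no groups overlapped, and sh2 was highest. The log2 differences from control were 0.33 ± 0.040 with sh1 and 0.55 ± 0.039 with sh2, with sh1 against sh2 at -0.23 ± 0.038.

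TSPAN3 (10099), which associates with claudin-11 in oligodendrocytes, had 89.2, 91.4 and 88.7 TPM with sh1, 122, 117 and 119.8 TPM with sh2, and 78, 80.2 and 78.2 TPM in control. The order of the groups was that of CD63 and TSPAN1, with sh2 highest and control lowest, and none of the tables of different groups overlapped. TSPAN3 was 0.24 ± 0.033 above control with sh1 and 0.67 ± 0.032 above it with sh2, and sh1 against sh2 was -0.43 ± 0.031.

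TSPAN4 (7106), which drives the growth of migrasomes on the retraction fibres of moving cells, was the scarcest of the 10, with 94 to 151 counts per table. Its levels were 15.8, 16.7 and 14.4 TPM with sh1, 10.2, 11.3 and 10.8 TPM with sh2, and 17.2, 14.6 and 14.6 TPM in control. The sh1 and control tables overlapped, and the sh2 tables lay below both. The log2 difference from control was 0.06 ± 0.107 with sh1 and -0.47 ± 0.114 with sh2, and sh1 exceeded sh2 by 0.53 ± 0.113. Without control replicate 1 the sh1 difference of TSPAN4 was 0.16.

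TSPAN14 (81619) and TSPAN15 (23555) belong to the TspanC8 subgroup. TSPAN14 stood at 52.2, 50.4 and 52.7 TPM with sh1, 39.1, 38.6 and 43.2 TPM with sh2, and 41.4, 42.5 and 41.2 TPM in control. The sh1 tables were the highest, and the sh2 tables overlapped the controls. TSPAN14 was 0.37 ± 0.039 above control with sh1 on the log2 scale and 0.34 ± 0.039 above sh2, while sh2 against control was 0.03 ± 0.040 in the count model and -0.05 as a ratio of mean TPM.

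TSPAN15, which favours cleavage of N-cadherin by ADAM10, was the one member that was lower with both hairpins. It had 40.1, 40.9 and 43 TPM with sh1, 44.2, 43.4 and 44.3 TPM with sh2, and 55.9, 56.9 and 56.4 TPM in control. Both hairpin groups lay below the controls, and the highest sh1 table lay just below the lowest sh2 table. TSPAN15 differed from control by -0.40 ± 0.052 with sh1 and -0.29 ± 0.051 with sh2. Between the hairpins the value was -0.11 ± 0.054, which did not pass in the count model and passed in limma on log2 FPKM at -0.10.

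A gene was called in the count model, edgeR's quasi-likelihood test fitted on all 9 tables, at a Benjamini-Hochberg adjusted p below 0.05. By that rule 9 of the 10 genes were called with sh1 against control (8 higher, 1 lower), where 69.3% of the 13580 genes tested were called (34.7% higher, 34.6% lower). With sh2 against control 9 were called (4 higher, 5 lower), where 68.5% of all genes were (34.2% higher, 34.3% lower). In sh1 against sh2 9 were called (6 higher with sh1, 3 lower), where 69.8% of all genes were (34.2% higher, 35.6% lower). The replicates of the groups did not overlap in TPM for 8 of the 10 genes with sh1 against control, 9 with sh2 against control and 10 in sh1 against sh2, where the shares over all genes were 71%, 69.5% and 70.9%. Nothing is read from these counts, since the same contrasts chose the genes. All 10 passed the filter on low counts. The members' median log2 difference was 0.34 with sh1 against control, -0.13 with sh2 against control and 0.25 between the hairpins, beside 0.01, 0.00 and 0.00 over all genes tested. Their median absolute difference was 0.36, 0.51 and 0.38, beside 0.32, 0.30 and 0.31 over all genes. Both hairpin contrasts use the same control tables.

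**Figure D2:**
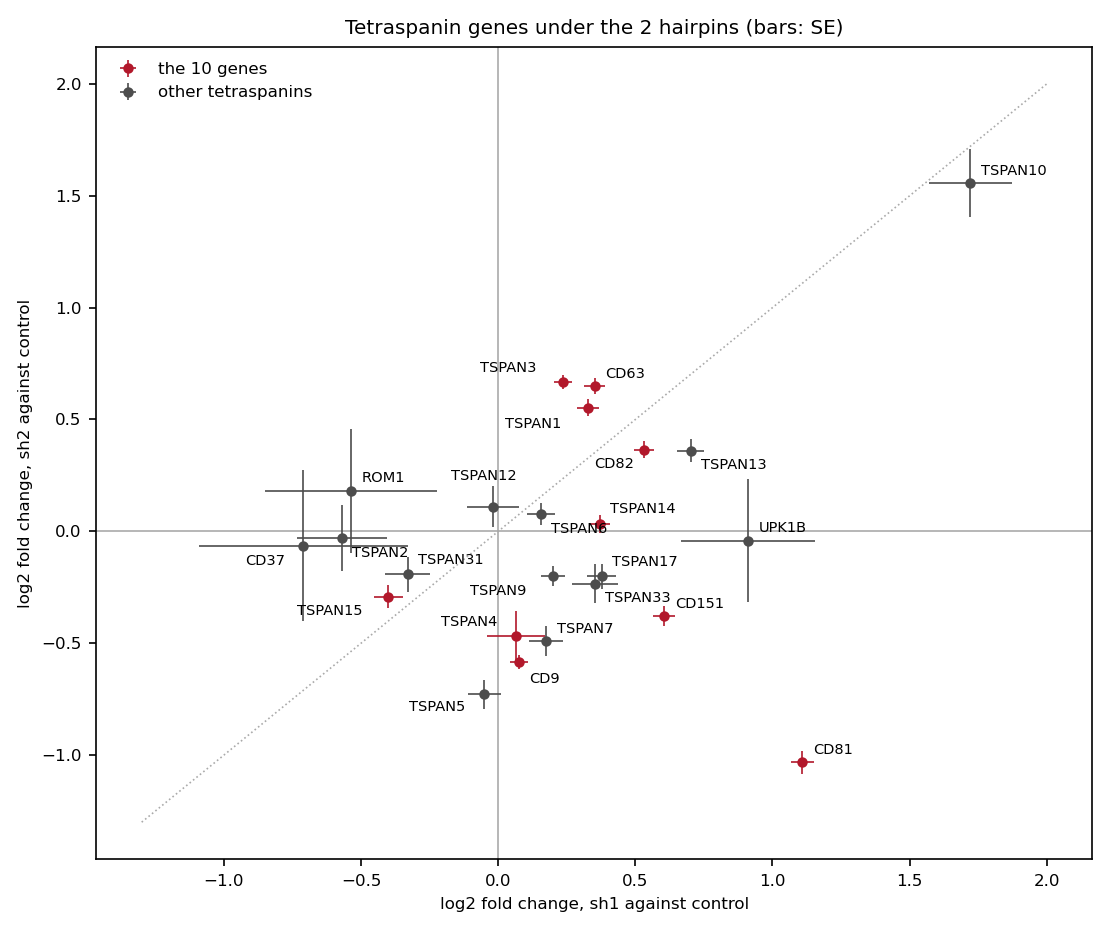
Log2 fold change with sh2 against control (vertical axis) plotted over that with sh1 against control (horizontal axis) for the 24 tetraspanins tested; bars are SE over 3 tables a group and the dotted line marks equal values. CD81 (1.11 and -1.03) and CD151 (0.61 and -0.38) lie at the lower right, TSPAN3, CD63 and TSPAN1 above the dotted line, and TSPAN10 (1.72 and 1.56) at the upper right.

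Together the 33 human tetraspanin genes summed to 2222 ± 23.3 TPM with sh1, 1737 ± 19.8 TPM with sh2 and 1756 ± 33 TPM in control (SD, n = 3 tables). The 3 sh1 sums, 2196 to 2241 TPM, lay above all others, and the sh2 sums of 1715 to 1754 TPM overlapped the control sums of 1720.4 to 1785 TPM. The 10 genes held 84.6%, 84.6% and 83.9% of the family sum in sh1, sh2 and control. Its makeup was less even. CD81 held 16.1 ± 0.164% of the family sum with sh1, 4.61 ± 0.128% with sh2 and 9.76 ± 0.670% in control. CD9 held 19.0% with sh1, 15.2% with sh2 and 23.6% in control, and CD63 held 18.7%, 29.3 ± 0.904% and 19.4% in the same groups.

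The balance of the 3 vesicle markers differed between the groups accordingly. CD81 stood to CD9 at a TPM ratio of 0.848 ± 0.020 with sh1, 0.303 ± 0.006 with sh2 and 0.414 ± 0.032 in control. The ratio of CD63 to CD9 was 0.980 ± 0.016 with sh1, 1.93 ± 0.073 with sh2 and 0.821 ± 0.006 in control. The ratio of CD81 to CD63 was 0.865 ± 0.024 with sh1, 0.158 ± 0.008 with sh2 and 0.504 ± 0.042 in control. CD63 thus came to nearly the level of CD9 in sh1 cells and exceeded it in all 3 sh2 tables, while CD9 exceeded CD63 in all 3 control tables. Summed over CD81, CD9 and CD63, the level was 1196 ± 23.1 TPM with sh1, 853 ± 22.6 TPM with sh2 and 927 ± 27.0 TPM in control.

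**Figure D3:**
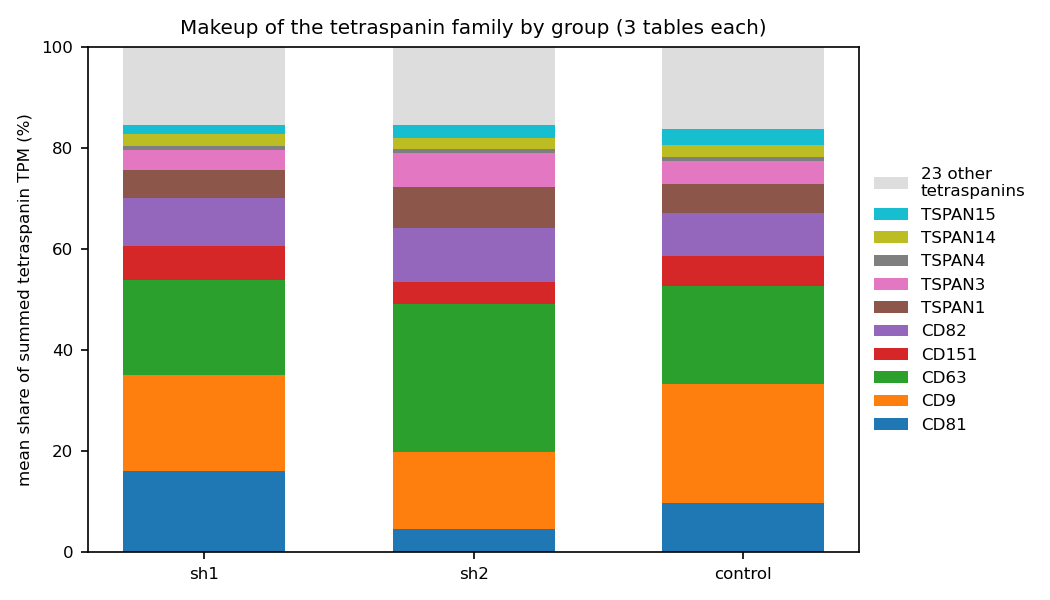
Mean share (%) of the summed TPM of 33 tetraspanin genes taken by each of the 10 genes and by the 23 others, for sh1, sh2 and control cells (3 tables each). The CD81 segment is 16.1% with sh1, 4.61% with sh2 and 9.76% in control, and the CD63 segment is widest with sh2 at 29.3%.

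By level per length, the family was led in sh1 cells by CD9, CD63 and CD81, followed by CD82, CD151 and TSPAN1. CD9 and CD63 overlapped there, and the other neighbours in that order did not. In sh2 cells the order was CD63, CD9, CD82, TSPAN1, TSPAN3, TSPAN13, CD81 and CD151. CD81 was the seventh there and overlapped both TSPAN13 and CD151. In control cells the order was CD9, CD63, CD81, CD82, CD151, TSPAN1 and TSPAN3. The tables of CD151 and TSPAN1 nearly met in control, at 101.2 and 101.16 TPM, and the remaining neighbours were apart. Ranked among all 19266 genes by mean TPM, CD81 stood at percentile 97.8 with sh1, 87.6 with sh2 and 94.6 in control. TSPAN15 and TSPAN14 followed below TSPAN13 in every group, and TSPAN14 overlapped TSPAN17 with sh1 and in control. TSPAN4 was far lower, at 15.6 ± 1.13 TPM with sh1, 10.7 ± 0.546 TPM with sh2 and 15.4 ± 1.5 TPM in control.

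The other 23 tetraspanins were taken as the whole rest of the family. Of these, 14 passed the filter on low counts and 9 stayed under 1 TPM in every group, among them TSPAN32 at 0 in every table and the leukocyte gene CD53. With sh1 against control 8 of the 14 rose, 2 fell and 4 did not pass, and with sh2 2 rose, 6 fell and 6 did not pass. Between the hairpins, 7 were higher with sh1, 2 were lower and 5 did not pass. Their median log2 changes were 0.17 with sh1, -0.05 with sh2 and 0.25 for sh1 against sh2. As for the 10 genes, the share called is to be read beside the 69.3%, 68.5% and 69.8% called over all genes.

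TSPAN10, a TspanC8 member, rose most within the family, to 11.2, 11.7 and 9.12 TPM with sh1 and 9.3, 10.8 and 9.29 TPM with sh2, against 3.4, 3.36 and 3.26 TPM in control. Its log2 changes were 1.72 ± 0.152 with sh1 and 1.56 ± 0.153 with sh2 (adjusted p = 2.28e-11 and 2.68e-10, quasi-likelihood test of edgeR, Benjamini-Hochberg adjusted), and every hairpin table exceeded every control table. TSPAN13 rose to 108 ± 2.83 TPM with sh1 and 84.3 ± 6.46 TPM with sh2, against 68.8 ± 3.26 TPM in control (log2 0.70 ± 0.049 and 0.36 ± 0.050, edgeR adjusted p = 1.17e-13 and 2.45e-07). TSPAN5, a further TspanC8 member, fell to 11.2 ± 0.233 TPM with sh2, against 19.4 ± 0.441 TPM in control (log2 -0.73 ± 0.065, edgeR adjusted p = 3.57e-11), and had -0.05 ± 0.060 with sh1 (edgeR adjusted p = 0.469). Outside the 10 genes, TSPAN10 and TSPAN13 were the tested tetraspanins called higher with each hairpin.

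TSPAN17 and TSPAN33, also of the TspanC8 subgroup, and TSPAN9, a tetraspanin of platelets, were higher with sh1 than with sh2. TSPAN17 rose by 0.38 ± 0.053 with sh1 and fell by 0.20 with sh2 (-0.20 ± 0.056), and the hairpins differed by 0.58 ± 0.054 (edgeR adjusted p = 2.38e-07, 0.00226 and 7.34e-11). TSPAN9 changed by 0.20 ± 0.044 with sh1 and -0.20 ± 0.046 with sh2, a difference of 0.40 ± 0.045 between the hairpins (edgeR adjusted p = 2.07e-04, 3.49e-04 and 4.41e-09). TSPAN33 rose by 0.35 ± 0.082 with sh1, and its -0.23 ± 0.088 with sh2 passed here (edgeR adjusted p = 0.0198) but not in DESeq2 (0.0863), without sh2 replicate 3 (0.115) or without control replicate 1 (0.0675). Its difference between the hairpins was 0.59 ± 0.084 (edgeR adjusted p = 3.74e-07).

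TSPAN7, mutated in a form of X-linked intellectual disability, fell to 21.3 ± 1.05 TPM with sh2, against 31.3 ± 1.93 TPM in control (log2 -0.49 ± 0.068, edgeR adjusted p = 2.18e-07), and was 0.67 ± 0.067 higher with sh1 than with sh2 (edgeR adjusted p = 3.99e-10). Its 0.17 ± 0.063 with sh1 passed here (edgeR adjusted p = 0.0153) but not in DESeq2 (0.121), without sh1 replicate 2 (0.0547) or without control replicate 1 (0.0708). UPK1B, a uroplakin of the bladder lining that was low here, rose with sh1 by 0.91 ± 0.243 (2.84 ± 0.752 TPM with sh1, 1.45 ± 0.130 TPM with sh2 and 1.57 ± 0.197 TPM in control, edgeR adjusted p = 0.00148), and had -0.04 ± 0.275 with sh2. TSPAN31, a gene amplified in sarcoma, fell with sh1 by 0.33 (-0.33 ± 0.082, edgeR adjusted p = 7.77e-04), and its -0.19 ± 0.080 with sh2 (edgeR adjusted p = 0.0339) was lost in 6 alternatives, including without sh2 replicate 2 (0.0666), sh2 replicate 3 (0.185) or control replicate 2 (0.205). TSPAN2, a myelin tetraspanin, fell with sh1 by 0.57 (-0.57 ± 0.163, edgeR adjusted p = 0.00275), or by 0.38 without control replicate 1 (adjusted p = 0.0510). TSPAN6 rose with sh1 by 0.16 ± 0.050 (edgeR adjusted p = 0.00722), a call lost in DESeq2 (0.0633).

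TSPAN12, CD37 and ROM1 did not pass against control with either hairpin. TSPAN12, which takes part in Norrin signalling, had -0.02 ± 0.094 with sh1 and 0.11 ± 0.091 with sh2 (edgeR adjusted p = 0.860 and 0.294). CD37, a leukocyte tetraspanin, stood at 1.03 ± 0.194 TPM with sh1, 1.59 ± 0.566 TPM with sh2 and 1.74 ± 0.415 TPM in control. ROM1, known from photoreceptor discs, was called between the hairpins at -0.72 ± 0.303 (edgeR adjusted p = 0.0364), a call lost in DESeq2 (0.162), with all genes kept (0.0525) and without sh1 replicate 2, sh1 replicate 3, sh2 replicate 1 or sh2 replicate 3 (0.0671 to 0.142).

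ADAM10, the sheddase that TspanC8 tetraspanins carry, did not pass with either hairpin and is named after its values were seen. It stood at 82.4 ± 0.570 TPM with sh1, 82.3 ± 2.25 TPM with sh2 and 86.7 ± 2.47 TPM in control. Its log2 differences were -0.03 ± 0.031 with sh1 and -0.01 ± 0.031 with sh2 (edgeR adjusted p = 0.465 and 0.841). The 6 TspanC8 genes, grouped here with their values known, are TSPAN5, TSPAN10, TSPAN14, TSPAN15, TSPAN17 and TSPAN33. With sh1 4 of the 6 were called higher and 1 lower, with sh2 1 higher and 4 lower, and between the hairpins 4 were higher with sh1 and 2 did not pass. Over all genes the shares were 34.7% higher and 34.6% lower with sh1, 34.2% and 34.3% with sh2, and 34.2% and 35.6% in sh1 against sh2, and 2 of the 6 genes, TSPAN14 and TSPAN15, were chosen on these contrasts. Their median log2 differences were 0.36 with sh1, -0.22 with sh2 and 0.46 for sh1 against sh2.

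In a list of ADAM10 and 10 of its substrates, 8 of 11 rose and 1 fell with sh1, 2 rose and 6 fell with sh2, and 8 were higher with sh1 than with sh2 and 1 lower, where 69.3%, 68.5% and 69.8% of all genes were called in these contrasts, about as many higher as lower. The medians were 0.28, -0.15 and 0.46 for these contrasts. CDH2, the N-cadherin gene, was low in this line and had 2.73 ± 0.103 TPM with sh1, 0.797 ± 0.025 TPM with sh2 and 1.62 ± 0.260 TPM in control. It rose by 0.83 ± 0.167 with sh1 and changed by -0.95 ± 0.211 with sh2 (edgeR adjusted p = 5.99e-05 and 2.33e-04). CDH1, the E-cadherin gene, rose to 320 ± 12.1 TPM with sh1, against 218 ± 8.46 TPM in control (log2 0.60 ± 0.028, edgeR adjusted p = 4.34e-18), and had 0.06 ± 0.028 with sh2 (edgeR adjusted p = 0.0595, and 0.0497 without control replicate 2). The growth factor genes EGF and BTC rose with both hairpins, EGF by 1.78 ± 0.118 with sh1 and 0.65 ± 0.136 with sh2, and BTC by 0.42 ± 0.092 and 0.71 ± 0.087 in that order of hairpins (edgeR adjusted p at most 1.69e-04).

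Of the 5 subunits of laminin-binding integrins, the partners of CD151, 2 rose and 1 fell with sh1, 1 rose and 3 fell with sh2, and between the hairpins 2 were higher with sh1 and 2 lower, near the 69.3%, 68.5% and 69.8% called over all genes. Their medians were 0.03 with sh1, -0.16 with sh2 and 0.19 for sh1 against sh2. ITGB4, the beta subunit of the hemidesmosome integrin, fell to 109 ± 3.67 TPM with sh1 and 148 ± 4.99 TPM with sh2, against 210.0 ± 4.44 TPM in control (log2 -0.89 ± 0.030 and -0.43 ± 0.029, edgeR adjusted p = 1.18e-21 and 3.75e-14). Its partner subunit ITGA6 fell with sh2 by 0.45 (-0.45 ± 0.028, edgeR adjusted p = 7.61e-15) and had -0.02 ± 0.027 with sh1. ITGA3 rose slightly with both, by 0.14 ± 0.026 with sh1 and 0.24 ± 0.026 with sh2 (edgeR adjusted p = 2.16e-05 and 1.61e-09). ITGA7 was under 1 TPM in every table, with 5 to 15 counts, and its 1.00 ± 0.366 with sh1 (edgeR adjusted p = 0.0167) was lost in DESeq2 (0.0986) and without control replicate 3 (0.0696). CD151 was highest with sh1, whereas ITGB4 was highest in control and lowest with sh1.

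Among 12 other partners of tetraspanins, 10 passed the filter on low counts and were tested. All are membrane proteins except the secreted TIMP1, which rose with both hairpins (0.86 ± 0.051 with sh1 and 0.89 ± 0.051 with sh2). With sh1 3 rose and 5 fell, with sh2 3 rose and 6 fell, and between the hairpins 5 were higher with sh1 and 3 lower, beside the 69.3%, 68.5% and 69.8% called over all genes. The medians were -0.14, -0.40 and 0.19. HBEGF, whose membrane-bound precursor associates with CD9, had 7.37, 6.67 and 5.43 TPM with sh1, 7.76, 7.38 and 9.42 TPM with sh2, and 33.7, 34.9 and 37 TPM in control. It fell with both hairpins by 2 log2 units or more (-2.39 ± 0.091 and -2.04 ± 0.084, edgeR adjusted p = 3.89e-20 and 4.56e-19). CLDN1, the tight junction protein that pairs with CD81 in hepatitis C virus entry, fell to 32.5 ± 0.595 TPM with sh1 and 16.6 ± 1.26 TPM with sh2, against 81.0 ± 2.35 TPM in control (log2 -1.27 ± 0.042 and -2.22 ± 0.047, edgeR adjusted p = 1.10e-21 and 2.68e-26).

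IFITM1, an interferon-induced protein first found in a complex with CD81, fell to 1246 ± 40.5 TPM with sh1 and 1003 ± 30.5 TPM with sh2, against 2212 ± 37.8 TPM in control (log2 -0.78 ± 0.031 and -1.07 ± 0.031, edgeR adjusted p = 9.34e-20 and 5.67e-23). HBEGF, CLDN1 and IFITM1 were all highest in control, where CD81 was in the middle. MMP14, a membrane-type matrix metalloproteinase, fell with sh2 by 1.85 (-1.85 ± 0.268, edgeR adjusted p = 4.48e-07) on only 13 to 15 counts per sh2 table, and had 0.17 ± 0.204 with sh1, or -0.04 without sh1 replicate 1 and 0.40 without sh1 replicate 3. IGSF8 and PTGFRN, the immunoglobulin-superfamily partners of CD81 and CD9, are named here after their values were seen. IGSF8 changed by -0.34 ± 0.043 with sh1 and 0.20 ± 0.040 with sh2 (edgeR adjusted p = 3.81e-08 and 8.52e-05, its sh2 and control tables overlapping in TPM), and PTGFRN by 0.32 ± 0.031 and -0.28 ± 0.032 in that order (edgeR adjusted p = 1.66e-10 and 4.66e-09).

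The list of extracellular vesicle machinery held 21 genes, all of them tested. With sh1 8 rose and 6 fell, with sh2 9 rose and 7 fell, and between the hairpins 8 were higher with sh1 and 9 lower, beside the 69.3%, 68.5% and 69.8% called over all genes. The medians were -0.01, 0.07 and -0.06, near those of all genes. SDCBP2, a relative of the CD63-binding adaptor syntenin, rose to 12.3, 10.3 and 10.8 TPM with sh1 and 7.5, 8.77 and 8.53 TPM with sh2, against 1.32, 2.58 and 1.84 TPM in control (log2 2.61 ± 0.187 and 2.2 ± 0.195, edgeR adjusted p = 2.02e-13 and 2.69e-11). HSPA8, a chaperone found in vesicles, rose by 1.18 ± 0.025 with sh1 and 1.30 ± 0.025 with sh2 (edgeR adjusted p = 3.05e-26 and 4.74e-27). RAB7A, the GTPase of late endosomes, stood at 529 ± 15.4 TPM with sh1, 216 ± 10.0 TPM with sh2 and 453 ± 17.5 TPM in control, a rise of 0.27 ± 0.032 with sh1 and a change of -1.0 ± 0.033 with sh2 (edgeR adjusted p = 6.46e-09 and 2.27e-21). SMPD3, the neutral sphingomyelinase of vesicle budding, fell with sh2 by 0.66 (-0.66 ± 0.171, edgeR adjusted p = 0.00113) and had -0.32 ± 0.166 with sh1.

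A list of 10 genes of late endosomes and lysosomes, where CD63 resides, held membrane proteins and the adaptor subunits AP3B1, AP3D1, AP3M1 and AP3S1. In it 7 rose and 3 fell with sh1, and 4 rose and 4 fell with sh2. Between the hairpins 6 were higher with sh1 and 3 lower, beside the 69.3%, 68.5% and 69.8% called over all genes. All of the adaptor subunits rose with sh1, while of the membrane proteins LAMP2, LAMP3 and CD68 rose and LAMP1, SCARB2 and NPC1 fell. With sh2 AP3B1 and AP3D1 rose, and AP3M1 and AP3S1 fell. The medians of the whole list were 0.18, 0.03 and 0.11. LAMP1 fell to 65.5 ± 0.926 TPM with sh1 and rose to 270.0 ± 3.63 TPM with sh2, against 224 ± 4.57 TPM in control (log2 -1.73 ± 0.035 and 0.34 ± 0.029, edgeR adjusted p = 5.85e-27 and 1.37e-11). LAMP3, a lysosomal protein distinct from CD63, stood at 132 ± 5.48 TPM with sh1, 31.3 ± 2.24 TPM with sh2 and 100.3 ± 2.24 TPM in control (log2 0.44 ± 0.036 and -1.61 ± 0.044, edgeR adjusted p = 4.86e-12 and 1.42e-23). CD68 rose by 0.66 ± 0.043 with sh1 and 0.60 ± 0.043 with sh2, and the cholesterol exporter gene NPC1 changed by -0.36 ± 0.035 and -0.47 ± 0.035 in that order (edgeR adjusted p at most 1.39e-10). LAMP1, like CD63, was highest with sh2, but unlike CD63 it was lower with sh1 than in control.

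**Figure D4:**
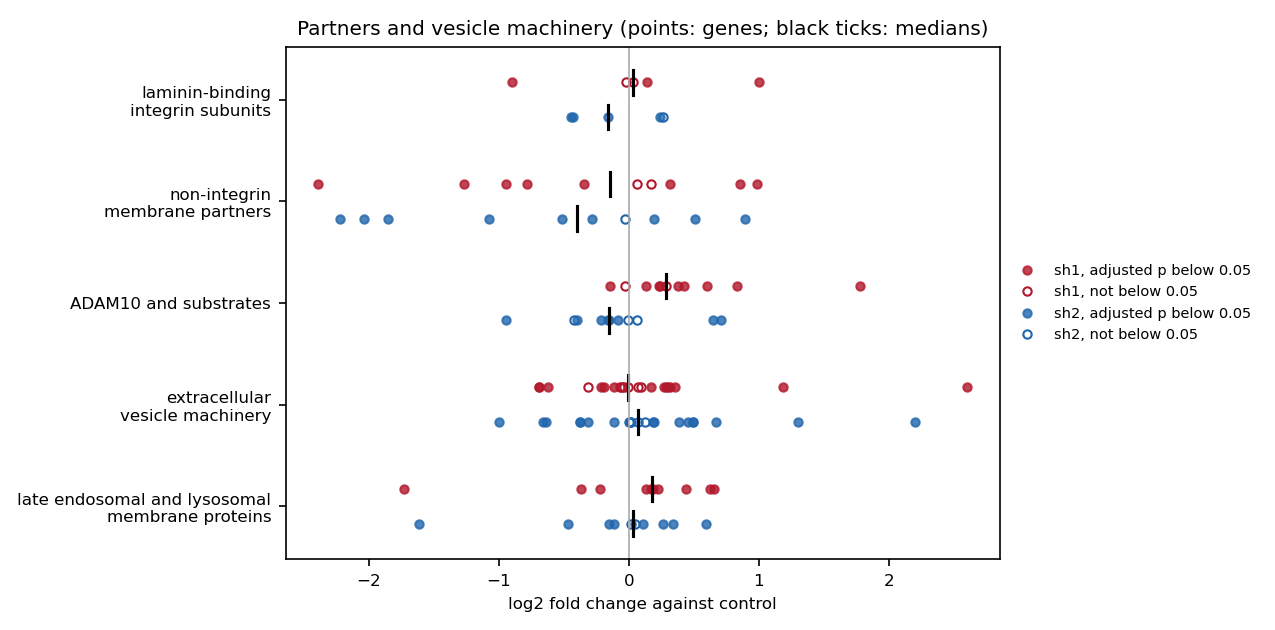
Log2 fold change against control (horizontal axis) of each tested gene in 5 lists of tetraspanin partners and vesicle or endosome genes, with sh1 (red, upper row of each list) and sh2 (blue, lower row); filled points had an edgeR adjusted p below 0.05 and black ticks are list medians. The points of the vesicle machinery spread to both sides of 0 with medians of -0.01 and 0.07, and those of ADAM10 and its substrates have medians of 0.28 with sh1 and -0.15 with sh2.

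The genes with the pattern most like CD81 were found by the Euclidean distance between the pairs of log2 differences from control, over all 13580 tested genes and 9 tables. The 5 nearest were MXD4, a transcription repressor that pairs with MAX, ANKK1, PGLYRP4, TMPRSS2, a serine protease of epithelial surfaces, and GLB1L2, at distances of 0.064 to 0.115. MXD4 had 9.29 ± 1.00 TPM with sh1, 2.13 ± 0.291 TPM with sh2 and 4.38 ± 0.384 TPM in control. TMPRSS2 had 9.92 ± 0.458 TPM with sh1, 2.30 ± 0.201 TPM with sh2 and 5.08 ± 0.146 TPM in control. GLB1L2 had 25.2 ± 0.688 TPM with sh1, 6.01 ± 0.523 TPM with sh2 and 13.1 ± 0.637 TPM in control. All 5 were less abundant than CD81, and these values were the basis of their choice. ANKK1 and PGLYRP4 had as few as 7.75 and 8 counts in an sh2 table. Their SEs with sh1 and sh2 were 0.246 and 0.327 for ANKK1 and 0.252 and 0.336 for PGLYRP4. These exceed the distances, as do the SEs of MXD4, 0.109 and 0.145, beside its distance of 0.064. For TMPRSS2 the SE with sh2, 0.133, exceeded its distance of 0.108. The SEs of GLB1L2, 0.065 and 0.086, were below its distance of 0.115, which lay close to that of TMPRSS2. The order of the 5 genes is thus not settled. The tetraspanin nearest to CD81 was CD151, at a distance of 0.82 and rank 262 among the tested genes.

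The deposited tables also give a length per gene that follows the estimated mix of its transcripts, a readout that the choice of the 10 genes did not use. For CD81 it was 1494 to 1497 bases over the 9 tables, a range of 0.18%. The widest range among the 10 was 3.13% for CD63, and TSPAN1 and TSPAN15 are listed with 1 transcript. With 3 tables against 3 an exact two-sided permutation test cannot go below 0.1, a value reached for CD81 in sh2 against control and against sh1 and for TSPAN14 in sh2 against control. The 4.41-fold difference of CD81 between the hairpins thus came with almost the same length in every table.

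CD81, CD151, CD82 and TSPAN4 lie on chromosome 11, and the nearest tested genes on each side were set beside each member. ASCL2 and TSSC4, the neighbours of CD81, had log2 differences of 1.38 ± 0.270 and 0.29 ± 0.105 with sh1, and of 1.01 ± 0.281 and 0.15 ± 0.105 with sh2 (edgeR adjusted p = 4.53e-05 and 0.0159 with sh1, and 0.00221 and 0.209 with sh2). Neither neighbour was lower with sh2, where CD81 was. POLR2L, which lies between CD151 and TSPAN4, had 0.28 ± 0.057 with sh1 and -0.01 ± 0.058 with sh2 (edgeR adjusted p = 7.14e-05 and 0.839). Over the 20 pairs of a member and a neighbour, the signs were equal in 14 with sh1 against control, 8 with sh2 against control and 12 between the hairpins. Changes that were not called are included, and POLR2L counts for both CD151 and TSPAN4. No share over neighbours among all genes was taken, so nothing is read from these counts.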

How the data were processed

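Per the file headers, each deposited table gives an expected count, a TPM, an FPKM and a length per gene. The submitters' processing notes list hg19 and the tools RSEM 1.2.12, HISAT2 2.0.4, DESeq2 1.4.5 and Bowtie2 2.2.5, with no word on their roles. The use of strand in counting is not given in the sources, so overlapping or antisense genes are uncertain. The deposited expected counts are estimates: 70.0% to 70.4% per table lay within 1e-06 of a whole number. They were rounded and analysed in R 4.3.3 with edgeR 4.0.16: filterByExpr kept 13580 genes, tables were scaled by TMM, and 1 quasi-likelihood model with a term for group was fitted to all 9 tables. Each SE was obtained from the log2 fold change and its F statistic. The fit's common coefficient of variation, here the spread between tables beyond counting error, was 2.33%. The chi-square per gene between tables of a sample was 1.41 to 2.43, above sampling noise, and all were kept as separate tables. A floor of 3 counts is 0.186 to 0.205 CPM, for counting error only.

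Levels are the TPM values deposited by the authors. The deposited FPKM values were used only in limma 3.58.1, as log2(FPKM + 1) or log2(FPKM + 0.1) for genes averaging 1 FPKM or more, which understates the change of low genes. Symbols came from a RefSeq table (GRCh38.p14), which matched 19223 of 19266 identifiers and also gave the neighbours. For the motif, the principal transcript of each gene and a single match, the one nearest a set point late in the coding sequence, were taken. On counts simulated for sh1 against control over 13580 genes, 26% of the genes changed by 1.1-fold were recovered. Changes of 1.25-fold were recovered for 66%, 1.5-fold for 84% and 2-fold for 92%, and 0.741% of the calls were false. The simulation changed only 200 genes, while 69.3% of genes were called with sh1 in the data, so these shares need not hold there. Its spread was that among the tables, so it tells nothing about false calls between samples.

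The 10 genes, the lists and the cell markers were chosen with earlier results of these data known. The text names all 10 genes, the other tetraspanins with at least 1 TPM in a group, up to 4 called genes per list by mean absolute log2 change, and the 5 genes nearest CD81. Some other list genes, such as TIMP1 and the adaptor subunits, are named to show what a list holds. Same-numbered tables had deviations that correlated by -0.0767 to 0.0426, and differently numbered ones by -0.0855 to 0.0673. A shared number thus brought no closer likeness, and the tables were not paired. Whether same-numbered tables share a run or culture was not tested.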

Additional observations from a re-analysis of the deposited data

Results flagged for a closer look

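The hairpins moved 7 tetraspanins to opposite sides of control in the count model and differed from each other, as log2 of sh1 over sh2, by 2.14 for CD81, 0.66 for CD9, 0.99 for CD151, 0.67 for TSPAN7, 0.40 for TSPAN9, 0.58 for TSPAN17 and 0.59 for TSPAN33. CD81, CD9 and CD151 were chosen with these responses known, so their differences are a description. TSPAN7, TSPAN9, TSPAN17 and TSPAN33 are listed because they lay on opposite sides of control, so their differences between the hairpins, all past the threshold in edgeR, are a description too. Over all 13580 genes, 12.7% were called in opposite directions. For CD9 and TSPAN7 the call with sh1, and for TSPAN33 that with sh2, was lost in several alternatives. Sums of squamous markers were 6149 to 6226 TPM with sh1 and 7413 to 7587 TPM with sh2, while EPCAM, CDH1 and DSP of the same list were higher with sh1 than with sh2, by 0.48, 0.54 and 0.65 on the log2 scale. The part of these markers in the differences was not tested. Groups of 3 tables are too small for a check of single outlying tables.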

How the results depend on the processing

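Over 15 refits and 2 recalculations without a test, no value of the 10 genes changed sign where it was called. Among other genes, the refits followed the tested tetraspanins and, in each list, only the genes chosen by mean absolute log2 change. None of their values changed sign where it was called. The limma fits left out CD37, UPK1B, ROM1, ITGA7, MMP14, CDH2 and SMPD3. The remaining list genes, among them IGSF8, PTGFRN, ADAM10 and EPCAM, were not followed. Over the refits, 8 to 9 of the 10 genes were called with sh1, 9 with sh2 and 9 to 10 between the hairpins, 8 to 10, 6 to 8 and 7 to 9 of the other tetraspanins, and 8421 to 9532, 8191 to 9384 and 8383 to 9541 of all genes. Calls of single genes that were lost are given beside them; HBEGF between the hairpins was lost without sh1 replicate 3 or sh2 replicate 3, and SDCBP2 in DESeq2 and without sh1 replicate 1 or sh2 replicate 1. Of the members' calls, those of CD9 with sh1 and of TSPAN15 between the hairpins changed in some fits. Leaving out 1 table moved CD81 to 1.06 to 1.18 with sh1, -1.09 to -0.97 with sh2 and 2.12 to 2.17 between the hairpins. The table number as a replicate block moved no log2 value of the 10 genes by more than 0.00084 and changed none of their calls, and the block called 9431 genes with sh1, 9295 with sh2 and 9501 in sh1 against sh2, where the fit without it called 9409, 9298 and 9477. The ratio of mean TPM moved them by up to 0.0825, on a scale where the median over all genes was -0.03 for sh1, -0.06 for sh2 and 0.02 for their contrast. Leaving out control replicate 1 moved them by up to 0.0955. Depth limits the named genes with low counts, among them TSPAN2, TSPAN4, TSPAN10, UPK1B, CD37, ROM1, ITGA7, MMP14, CDH2, EGF, HBEGF, SMPD3, SDCBP2, ANKK1 and PGLYRP4. In control, SDCBP2 had 13, 24 and 17 counts per table and TSPAN10 had 40, 38 and 37. With sh2, CDH2 had 20, 23 and 22. With 1 sample per group, none of the calls was tested between samples.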
